A study of Mus musculus with 6 samples.

Results

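The genes described here encode 8 components of vasoactive signalling in endothelial cells. Nos3 makes nitric oxide, Edn1, Ece1 and Ednrb make, activate and sense endothelin, Calcrl and Ramp2 form the adrenomedullin receptor, S1pr1 senses sphingosine 1-phosphate, and Ace makes angiotensin II. They were taken by symbol, and each matched 1 of the 41214 gene rows. All 8 passed the filter on low counts, which left 10952 genes tested.

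RNA was measured in endothelial cells sorted from embryonic mouse hearts, in 6 libraries. All embryos used carried the transgene Pdgfb-iCreERT2-IRES-EGFP. Its Pdgfb promoter is active in endothelial cells and makes EGFP together with a Cre recombinase that tamoxifen switches on. Every group, wt included, received tamoxifen at E13.5, and hearts were dissected 1 day later, at E14.5, for sorting of CD31+GFP+ cells. The wt group (libraries 4 and 5) came from the transgenic line bred to wildtype females and had 2 intact copies of Dll4, the gene of a Notch ligand. The het group (libraries 2 and 3, genotype Dll4+/-) came from Dll4flox/flox Pdgfb-iCre-ERT2-EGFP mice crossed with wildtype females and had 1 intact copy. The KO group (libraries 1 and 2, genotype Dll4-/-) came from the same mice crossed with Dll4 flox/flox females and had 0. Several litters of different mothers were used, but the labels do not say which hearts entered which library, so p-values measure the spread between these libraries, which may be technical.

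As background, endothelial cells set the tone of the vessel wall by releasing small signals that act on themselves and on neighbouring cells. Nitric oxide and adrenomedullin relax vessels, endothelin-1 constricts smooth muscle but promotes nitric oxide release when it binds the endothelin B receptor on endothelium, and angiotensin II constricts. In the embryo the adrenomedullin receptor and S1pr1 are also needed for vessels to form and mature.

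Totals ranged from 1537908 counts in het replicate 2 to 6501798 in KO replicate 1. The KO libraries were the deepest, with 4988014 in KO replicate 2 and at most 3165552 outside KO. The level of Dll4, the targeted gene, was 196 and 183 CPM (the usual depth-scaled count, with TMM-scaled library sizes) in wt, 81.2 and 85.9 in het, 19.4 and 13.7 in KO, and so followed the labels (log2 fold change -3.50 for KO and -1.18 for het against wt, adjusted p = 2.01e-12 and 7.35e-04 by edgeR; leaving out wt replicate 4 ended the call for het, at -1.13). The KO libraries stood apart in makeup: Lars2 took 0.0572% and 0.0611% of their counts and between 16.3% and 17.1% in the other 4. The labels name no preparation batch, and a preparation that differed for KO cannot be told apart from the genotype. The 13 endothelial markers (Pecam1, which encodes CD31, among them) summed to 9285 and 9479 CPM in the wt libraries, 8476 and 9093 in het, 7802 and 8077 in KO. Single markers moved both ways in KO against wt, with log2 fold changes from -2.29 to 0.77. Kdr and Tek were called higher (14.7% of all genes), and Cdh5, Flt1, Erg, Emcn and Eng lower (17.3%). Markers of other cells were low. The 14 cardiomyocyte markers summed to between 116 and 126 CPM in wt, 195 and 242 in het, 53.8 and 59.0 in KO. Of the 10 tested, all were called lower in KO against het (17.2% of all genes) and 4 in KO against wt (17.3%). Ryr2, at 0 in KO, did not pass the filter on low counts. The 12 macrophage and leukocyte markers summed to between 61.6 and 141 CPM in wt, 120 and 377 in het, 37.0 and 74.9 in KO. The 14 mural and fibroblast markers summed to between 197 and 270, 340 and 441, and 140 and 257 CPM in the same order. Of the 9 tested, Pdgfrb was called higher in KO against wt (14.7% of all genes). Dcn, Acta2 and Kcnj8 were called lower (17.3%). Myh11, at 0 in KO, was not tested. The part of these shifts in the results was not tested.

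Between KO and wt, 5 of the 8 genes were called by edgeR's quasi-likelihood test, where a call means a Benjamini-Hochberg adjusted p below 0.05. Edn1, Ramp2 and Ace were lower in KO, and Ece1 and Calcrl were higher. Of all genes tested, 32% were called in this comparison, 14.7% higher and 17.3% lower, so a call is common there. Nos3, Ednrb and S1pr1 were not called. Between KO and het, 4 of the 8 were called, with Edn1 and Ramp2 lower and Ece1 and Calcrl higher, against 31.2% of all genes (13.9% higher, 17.2% lower). Between het and wt none of the 8 was called by edgeR, against 0.173% of all genes (0.128% higher, 0.0457% lower), while 2 of the 8, Calcrl and Ace, had an unadjusted p under 0.05, as did 8.15% of all genes. DESeq2 and limma-voom called none of the 8 there either. The libraries of KO and wt did not overlap for 7 of the 8, with KO higher for 4 (33.2% of all genes) and lower for 3 (34.5%). KO and het did not overlap for 5, 3 higher (31.4% of all genes) and 2 lower (33%). Het and wt did not overlap for 3, Nos3 higher (19.2% of all genes) and Calcrl and Ace lower (18.8%). KO against wt and het against wt share the wt libraries, and KO against wt and KO against het share the KO libraries. In bulk samples, fewer cells of a type and less RNA per cell cannot be told apart.

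**Figure D1:**
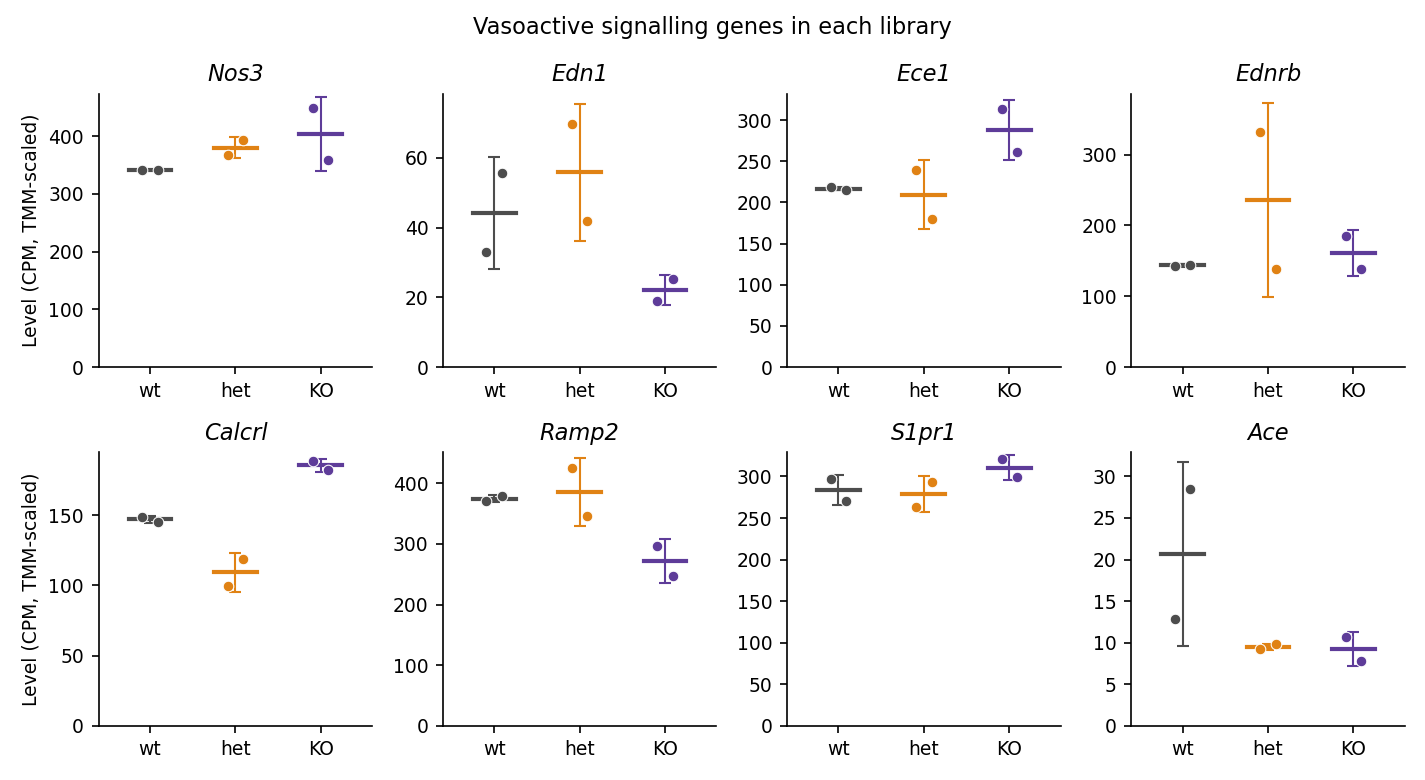
Level of each of the 8 genes in CPM with TMM-scaled library sizes (y axis, from 0) in wt, het and KO (x axis). Points are the 2 libraries of a group, thick bars the mean and thin bars the SD. Both KO libraries lie below the other 4 for Edn1 and Ramp2 and above them for Calcrl and Ece1, and 1 het library stands apart for Ednrb.

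Levels between the genes were compared per kilobase of exon. In wt, Ramp2 stood highest at 114 ± 1.78 CPM per kb (SD, n = 2), followed by S1pr1 at 97.4 and 88.9 in the 2 libraries and Nos3 at 82.7 ± 0.0565. Ece1, Ednrb and Calcrl followed at 40.9 ± 0.423, 33.7 ± 0.391 and 30.2 ± 0.497. Edn1 stood at 20.7 ± 7.51 and Ace at 3.91 ± 2.09. The order of all 8 was the same in both wt libraries. In KO the per-kilobase levels of Nos3 (97.6 ± 15.5) and S1pr1 (102 ± 5.02) did not separate, since their order differed between the 2 libraries, and Ramp2 (82.4 ± 10.9) ranked below both of them. In het, Edn1, Calcrl, Ednrb and Ece1 changed places between the 2 libraries, as did Nos3 and S1pr1. Ace was lowest in all 6 libraries. The exon length of Ramp2 used here includes 1103 bases shared with Vps25, 33.4% of it, so its level per kilobase may be understated.

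Nos3 (chromosome 5, 24364810 to 24384474, GRCm38, ENSMUSG00000028978) encodes endothelial nitric oxide synthase, which makes nitric oxide from arginine. Its level was 342.0 and 341.7 CPM in wt, 367 and 393 in het, 449 and 358 in KO. All 4 het and KO libraries lay above both wt libraries, and KO spanned the het values, with KO replicate 2 below both het libraries. KO differed from wt by a log2 fold change of 0.24 ± 0.11 (SE), with a 95% confidence interval from 0.01 to 0.47 and adjusted p = 0.0974. Het differed from wt by 0.16 ± 0.11 (adjusted p = 0.744). The interval of KO against wt reaches a level 1.38-fold higher. The fit was repeated under 13 alternative settings of scaling, test, filter, genes and libraries. Nos3 was called higher in KO without KO replicate 2 (log2 fold change 0.40), without a filter (0.29) and with scaling by library size only (0.60), and its adjusted p over all settings ranged from 1.66e-04 to 0.751. With library size only, the median over all genes was 0.35 in place of -0.02. The exons of Nos3 overlap those of the antisense gene Gm15587 over 1040 bases and of Atg9b over 294 bases, and the libraries did not keep strand. Atg9b stood between 3.39 and 14.2 CPM.

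Of 25 further genes around nitric oxide synthesis and signalling on the list, 19 were tested, and in KO against wt 5 were called lower and 1 higher, a share near the 32% called over all genes. The median log2 fold change was -0.21, against -0.02 over all genes. Slc7a1, the cationic amino acid transporter that brings in arginine, stood at 130 ± 5.10 CPM (wt), 145 ± 23.0 (het) and 48.7 ± 8.11 (KO; SD, n = 2), 2.67-fold lower in KO than in wt (adjusted p = 3.79e-07). Ddah1, which breaks down an endogenous inhibitor of nitric oxide synthases, stood at 121 ± 5.81, 74.0 ± 6.92 and 60.3 ± 0.635 CPM, and was called lower in KO than in wt (1.99-fold, adjusted p = 1.25e-05). In het Ddah1 lay below both wt libraries without a call (adjusted p = 0.0679), and was called without a filter on low counts. Both falls against wt held in all settings tried. The chaperone genes Hsp90ab1 and Hsp90aa1, whose products bind the synthase, were called lower by 0.33 and 0.34 on the log2 scale, but with scaling by library size only both stood at 0.03. Leaving out wt replicate 4 or KO replicate 1 also ended both calls, and leaving out KO replicate 2 ended that of Hsp90aa1. Cyb5r3, which keeps the haemoglobin of vessel walls reduced, was called lower at -0.44 and lost its call without wt replicate 4 or KO replicate 2 and with library size only. The listed gene called higher, Nos2, the inducible synthase, was picked out here after its values were seen. It stood at 40.9 ± 3.93 CPM in wt and 59.3 ± 3.23 in KO (adjusted p = 0.0387), and without any 1 of the wt or KO libraries, with DESeq2 or with limma-voom it was not called.

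Edn1 (chromosome 13, 42301476 to 42307990, ENSMUSG00000021367) encodes the precursor of endothelin-1, and Ece1 (chromosome 4, 137862237 to 137965229, ENSMUSG00000057530) the membrane protease that cuts its intermediate into the active peptide. The bases upstream of their RefSeq start sites are shown because this ligand and its activating enzyme moved in opposite directions. RefSeq windows (GRCm38.p6) were found for 5 of the 8 genes, 9 windows in all. Capitals mark matches, on either strand, to 6 motifs searched: the letters TGGGAA of RBPJ, which is the Notch effector, the CACCC box of KLF factors, the ACGTG core of hypoxia-inducible factors, the TGANTCA site of AP-1, the AGATAA element of GATA-type factors and the AGGAAG core of ETS factors. A match on the other strand appears as its reverse complement.
Edn1, upstream bases at chr13:42301226-42301475, plus strand: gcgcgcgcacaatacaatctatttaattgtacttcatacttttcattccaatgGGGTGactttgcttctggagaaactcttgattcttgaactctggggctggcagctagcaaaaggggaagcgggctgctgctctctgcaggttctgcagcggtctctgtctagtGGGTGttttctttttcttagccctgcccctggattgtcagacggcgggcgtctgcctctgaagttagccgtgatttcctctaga
Ece1, first start site, upstream bases at chr4:137861987-137862236, plus strand: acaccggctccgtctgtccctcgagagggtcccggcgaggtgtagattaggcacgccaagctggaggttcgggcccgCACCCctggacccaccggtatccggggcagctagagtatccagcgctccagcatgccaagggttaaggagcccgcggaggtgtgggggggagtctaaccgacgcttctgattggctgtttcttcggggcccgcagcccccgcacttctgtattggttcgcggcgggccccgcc

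In these windows the only matches were to CACCC, 2 in Edn1 and 1 in Ece1. That motif was present in 52.0% of the 32851 RefSeq windows of this length. TGGGAA was found in 21.6% of all windows and in neither of these. Ece1 has 4 RefSeq windows, and the table of counts does not say which start sites were used. Of its windows not shown, window 4 held 1 TGGGAA match and window 3 held 2 overlapping ACGTG matches, a motif found in 16.6% of all windows.

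Edn1 was lowest in KO. Its level was 33.0 and 55.7 CPM in wt, 69.8 and 41.9 in het, 19.1 and 25.3 in KO, from between 77 and 149 counts per library. The wt and het libraries overlapped, while both KO libraries lay below the other 4. KO gave a log2 fold change of -0.97 ± 0.30 (SE) against wt (1.96-fold lower, adjusted p = 0.0278) and -1.29 ± 0.29 against het (2.44-fold lower, adjusted p = 0.00585). Het against wt gave 0.32 ± 0.31, with an interval from -0.36 to 0.99. The KO against het call held in all 13 settings, over which the value ran from -1.66 to -0.91. The KO against wt call ended without wt replicate 5 (-0.57 on the log2 scale), without KO replicate 1 (-0.77) and with library size only (-0.61), with adjusted p from 1.56e-04 to 0.243 over the settings.

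Ece1 was highest in KO. Its level was 218 and 215 CPM in wt, 239 and 180 in het, 314 and 262 in KO, so both KO libraries lay above the other 4. In KO the log2 fold change was 0.41 ± 0.13 (SE) against wt (1.33-fold higher, adjusted p = 0.0204) and 0.47 ± 0.13 against het (1.39-fold higher, adjusted p = 0.00899). Het against wt gave -0.07 ± 0.13, with an interval from -0.35 to 0.22. The KO against wt call ended without wt replicate 4 (0.46 on the log2 scale), wt replicate 5 (0.40) or KO replicate 1 (0.28), with adjusted p from 1.45e-04 to 0.212 over the settings. That against het was lost without het replicate 3 (0.27) or KO replicate 1 (0.34), with adjusted p from 3.35e-05 to 0.161.

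Ednrb (chromosome 14, 103814625 to 103844402, ENSMUSG00000022122) encodes the endothelin B receptor, the endothelin receptor of endothelial cells. Its level was 143 and 145 CPM in wt, 333 and 139 in het, 185 and 139 in KO. Het replicate 2 stood apart from the other 5 libraries, which lay between 139 and 185 CPM. As log2 fold changes the differences were 0.67 ± 0.54 (SE) for het against wt, 0.17 ± 0.52 for KO against wt and -0.50 ± 0.51 for KO against het, none of them called (adjusted p = 0.828, 0.845 and 0.556). Without het replicate 2 the first of these was -0.047, and without het replicate 3 it was 1.21 and called, so het replicate 2 decided the value. That library also held the highest summed levels of macrophage and leukocyte markers (377 CPM, against 37.0 to 141 in the others), platelet markers (151 against 12.2 to 60.9), endocardial markers (1095 against 676 to 887) and cardiomyocyte markers (242 against 53.8 to 195), and the lowest of erythroid markers (118 against 145 to 416). The part of these cells in the Ednrb value was not tested.

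Of the 8 other genes on the endothelin list, 4 were tested. Pcsk7, a proprotein convertase, stood at 38.6 ± 5.36 CPM (wt), 33.5 ± 1.97 (het) and 69.3 ± 3.43 (KO; SD, n = 2) and was called 1.78-fold higher in KO than in wt (adjusted p = 9.26e-04), a call kept in all settings. Furin, the convertase that makes the first cut in the endothelin precursor, was called lower at 145 ± 0.899 and 112 ± 4.48 CPM (1.29-fold, adjusted p = 0.0223), but at -0.01 on the log2 scale with library size only and not called there, with DESeq2, without a filter or without any 1 of the wt or KO libraries. The median of the 4 was -0.07, against -0.02 over all genes. Ednra, the endothelin A receptor of smooth muscle, had at most 3 counts in a library, Edn3 at most 4 and Edn2 0.

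Calcrl (chromosome 2, 84330626 to 84425411, ENSMUSG00000059588) encodes a G protein-coupled receptor that reaches the cell surface only with a RAMP partner, and Ramp2 (chromosome 11, 101246028 to 101259546, ENSMUSG00000001240) encodes the partner that makes it an adrenomedullin receptor. The 2 genes of this complex moved in opposite directions in KO. Calcrl stood at 149 and 146 CPM in wt, 99.7 and 119 in het, 189 and 182 in KO. No group overlapped another: het was lowest, wt in between and KO highest. KO exceeded het by a log2 fold change of 0.75 ± 0.12 (SE) (1.68-fold higher, adjusted p = 7.21e-05), called in all 13 settings with values from 0.65 to 1.13. The difference was 0.33 ± 0.12 between KO and wt (1.26-fold higher, adjusted p = 0.0364) and -0.42 ± 0.13 for het against wt (to 75.0% of the wt level, adjusted p = 0.283). The call against wt was lost with DESeq2 (log2 fold change 0.35) and without wt replicate 4 (0.39), wt replicate 5 (0.32), KO replicate 1 (0.31) or KO replicate 2 (0.37), with adjusted p from 8.55e-05 to 0.161 over the settings.

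Ramp2 stood at 371 and 379 CPM in wt, 425 and 346 in het, 297 and 246 in KO. Both KO libraries lay below the other 4, and het spanned the wt values. Relative to wt the KO log2 fold change was -0.46 ± 0.11 (SE) (1.38-fold lower, adjusted p = 0.00375) and relative to het it was -0.50 ± 0.11 (1.41-fold lower, adjusted p = 0.00223). Het against wt gave 0.03 ± 0.12, with an interval from -0.21 to 0.28. With scaling by library size only, the falls shrank to -0.10 and -0.12 and were not called. Under that scaling the median over all genes was 0.35 against wt and 0.36 against het. The call against wt was also lost without wt replicate 4 (-0.44) or KO replicate 2 (-0.33), with adjusted p from 9.42e-04 to 0.518, and that against het without het replicate 2 (-0.34) or KO replicate 2 (-0.36), with adjusted p from 3.45e-04 to 0.427. Vps25, whose exons share 1103 bases with Ramp2 on the same strand, stood between 71.5 and 97.5 CPM and was not called (log2 fold change -0.16 for KO against wt).

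**Figure D2:**
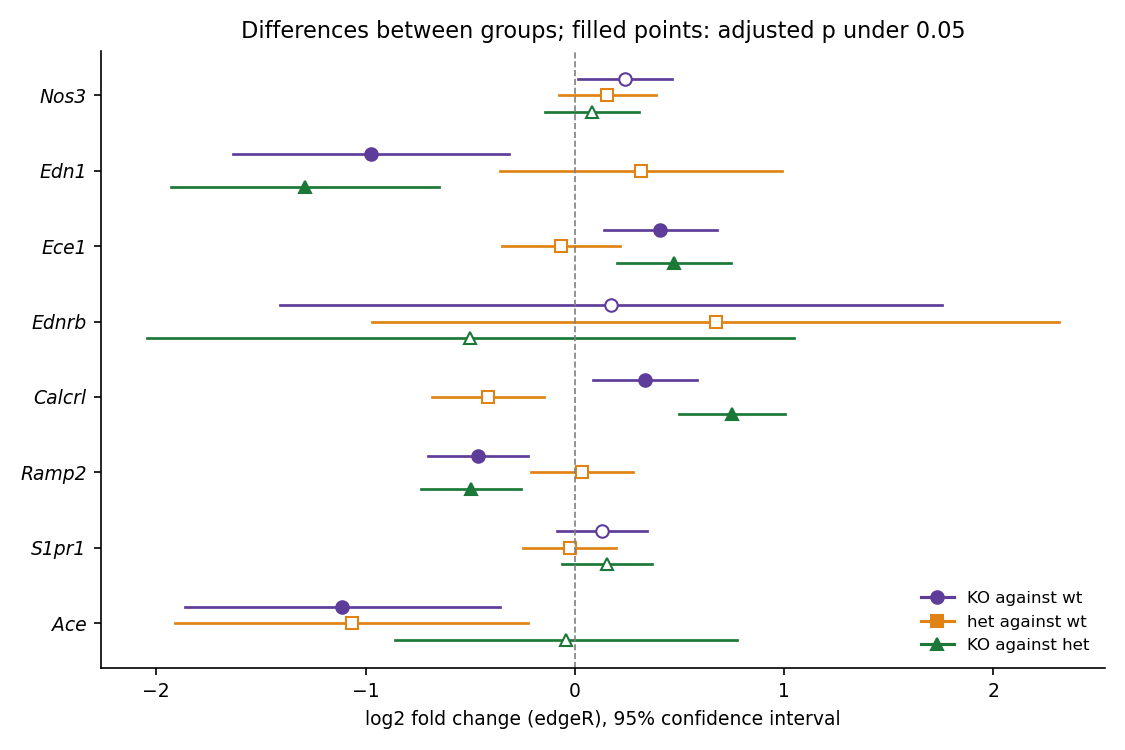
Log2 fold change (x axis) of each gene (y axis) in the 3 comparisons, with the 95% confidence interval from edgeR as lines. Filled points have an adjusted p under 0.05. Edn1 and Ramp2 lie left of 0 and Ece1 and Calcrl right of 0 in both comparisons with KO, and no het against wt point is filled.

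Among the 5 tested of 10 further genes of adrenomedullin and CGRP signalling, Adm, the gene of adrenomedullin itself, rose most. It stood at 42.4 and 38.0 CPM in wt, 42.7 and 49.6 in het, 107 and 118 in KO, 2.78-fold higher in KO than in wt (adjusted p = 5.05e-07) and 2.41-fold higher than in het (adjusted p = 2.83e-06). Ackr3, an atypical receptor that removes adrenomedullin as well as the chemokine Cxcl12, fell to 27.6 ± 8.85 CPM in KO from 91.8 ± 16.1 in wt and 90.9 ± 24.5 in het (SD, n = 2), 3.31-fold lower than in wt (adjusted p = 4.24e-04). Both calls held in all settings tried. Pam, the enzyme that amidates adrenomedullin, was called lower at 52.8 ± 1.17 CPM against 73.4 ± 9.91 in wt (adjusted p = 0.0390), and lost its call in most settings, among them DESeq2, limma-voom, library size only and the loss of any 1 wt or KO library. Ramp3, the other RAMP of adrenomedullin receptors, stood between 7.63 and 15.8 CPM in the 6 libraries and was not called, and was named after its values were seen. Ramp1, the RAMP of the CGRP receptor, had at most 2 counts in a library, and Calca and Calcb, which encode CGRP, at most 1 and 0.

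A ratio of 2 genes within a library does not depend on how libraries are scaled to each other. These ratios of per-kilobase levels were chosen after the values were seen and are a description with no test. They show that 2 genes changed unequally, not which of them changed. The ratio of Calcrl to Ramp2 was 0.272 and 0.260 in wt, 0.159 and 0.232 in het, 0.430 and 0.500 in KO. The KO mean was 1.75 times the wt mean, and no group overlapped another. The ratio of Adm to Ramp2 was 0.233 and 0.204 in wt, 0.205 and 0.292 in het, 0.733 and 0.979 in KO. On the endothelin side, Ece1 to Edn1 was 2.67 and 1.56 in wt, 1.38 and 1.73 in het, 6.63 and 4.18 in KO, where the wt and het libraries overlapped and both KO libraries lay above them. Nos3 to Edn1, the maker of a relaxing signal to that of a constricting one, was 5.37 and 3.18 in wt, 2.73 and 4.86 in het, 12.2 and 7.33 in KO. This rise was not particular to Nos3. The KO mean was 2.28 times the wt mean for Nos3 to Edn1, 2.19 times for Ednrb to Edn1 and 2.07 times for S1pr1 to Edn1. In all of these the KO libraries lay above those of wt and het, though Nos3, Ednrb and S1pr1 were not called.

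**Figure D3:**
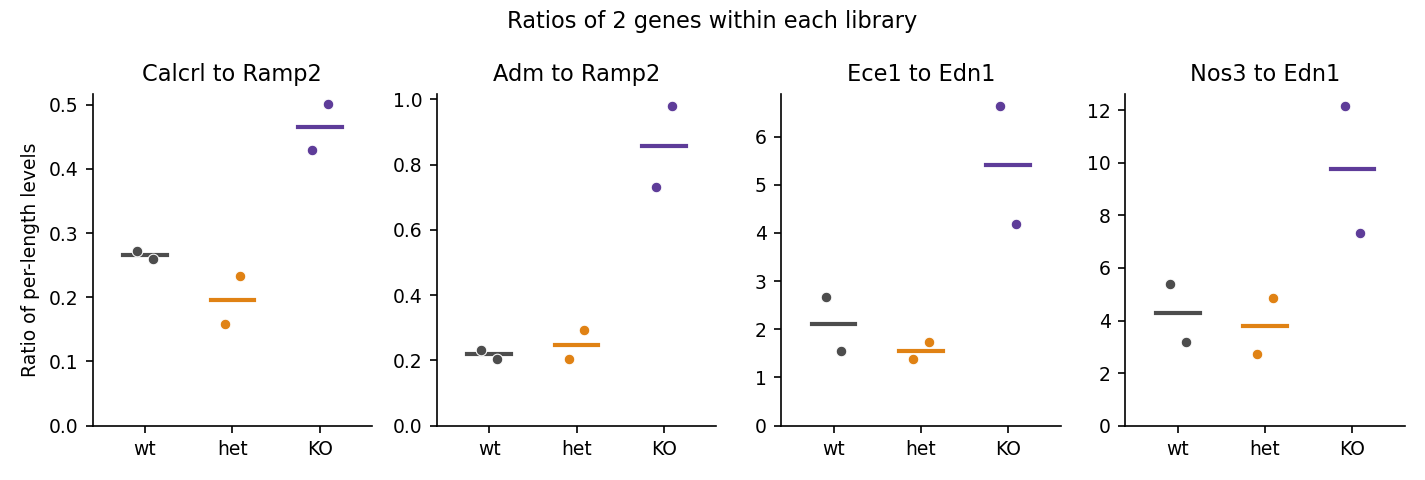
Ratio of the per-kilobase levels of 2 genes within each library (y axis, from 0) by group (x axis), with points for libraries and bars for group means. Both KO libraries lie above all wt and het libraries in each of the 4 ratios. Calcrl to Ramp2 reached 0.500 in KO and at most 0.272 elsewhere.

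S1pr1 (chromosome 3, 115710433 to 115715072, ENSMUSG00000045092) encodes the main endothelial receptor for sphingosine 1-phosphate, a blood lipid that steadies junctions and restrains sprouting. Its level was 297 and 271 CPM in wt, 264 and 294 in het, 322 and 300 in KO. The groups lay close together, with both KO libraries just above the other 4. Between KO and wt the log2 fold change was 0.13 ± 0.10 (SE), with an interval from -0.09 to 0.34 (adjusted p = 0.368), and -0.02 ± 0.11 for het against wt, with an interval from -0.25 to 0.20 (adjusted p = 0.976). It was called higher in KO only with library size only, at 0.49 against wt and 0.53 against het, with adjusted p from 7.17e-04 to 0.744 over the settings against wt. Under that scaling the median over all genes was 0.35 in place of -0.02.

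Of 15 further genes of sphingosine 1-phosphate metabolism and sensing, 9 were tested, and 2 were called higher and 1 lower in KO against wt. That share is near the 32% called over all genes. Plpp3, a lipid phosphatase at the cell surface that degrades lysophospholipid signals, fell. It stood at 175 and 169 CPM in wt, 187 and 165 in het, 84.9 and 82.6 in KO, 2.05-fold lower in KO than in wt (adjusted p = 1.17e-06). Sgpp1, a phosphatase that removes sphingosine 1-phosphate inside the cell, rose to 39.0 ± 0.688 CPM from 20.8 ± 0.817 in wt (SD, n = 2, 1.87-fold, adjusted p = 0.00342). These calls against wt held in all settings. Abcc1, an exporter, was called 1.56-fold higher (adjusted p = 0.0187) and lost its call with DESeq2 or without any 1 of the wt or KO libraries. Sgpl1, the lyase that ends the pathway, was called in KO against het (0.71 on the log2 scale, adjusted p = 0.00773, lost without het replicate 3 or KO replicate 1) and not against wt (0.31). Spns2, the endothelial exporter of the lipid, stood at 97.4 ± 13.6 CPM in wt and 97.3 ± 0.870 in KO. It was named after its values were seen. The list had a median of 0.24 in KO against wt, against -0.02 over all genes.

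Ace (chromosome 11, 105967945 to 105989964, ENSMUSG00000020681) encodes angiotensin-converting enzyme, a surface peptidase that makes angiotensin II and degrades bradykinin. It was the least abundant of the 8 genes, with between 13 and 82 counts per library. The bases upstream of its first RefSeq start site are shown because the window holds the ETS-type motif AGGAAG, and ETS factors such as Erg are central regulators in endothelium.
Ace, upstream bases at chr11:105967698-105967947, plus strand: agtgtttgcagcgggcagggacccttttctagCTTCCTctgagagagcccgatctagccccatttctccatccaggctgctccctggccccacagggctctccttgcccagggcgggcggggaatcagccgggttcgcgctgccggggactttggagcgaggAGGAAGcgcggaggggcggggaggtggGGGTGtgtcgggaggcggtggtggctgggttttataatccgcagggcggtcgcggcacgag

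Capitals mark matches to the same 6 motifs. AGGAAG was found at 2 positions there and in 29.5% of all windows, and CACCC at 1. The window was picked for holding AGGAAG, so its presence there is not a result. The Calcrl window, not shown, also held 1 AGGAAG match. A match describes letters and is not evidence of binding.

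The level of Ace was 12.8 and 28.5 CPM in wt, 9.26 and 9.77 in het, 10.6 and 7.80 in KO. Both het and both KO libraries lay below both wt libraries, but wt replicate 5 stood far above wt replicate 4. Ace changed by -1.11 ± 0.36 (SE) on the log2 scale in KO against wt (2.16-fold lower, adjusted p = 0.0227) and -1.07 ± 0.40 for het against wt (adjusted p = 0.436). KO and het overlapped, at -0.04 ± 0.39 with an interval from -0.86 to 0.77. Without wt replicate 5 the KO against wt value was -0.46 and not called. The call was also lost without KO replicate 2 (-0.91), with DESeq2 (-1.12), limma-voom (-0.94) and library size only (-0.75), with adjusted p from 0.0121 to 0.51 over the settings. The rest of the renin, angiotensin and kinin list was sparse: 3 of 14 genes were tested, and Ren1 and the angiotensin receptor genes Agtr1a, Agtr1b and Agtr2 had no count in any library. Agt, the angiotensin precursor, had at most 2 counts. Anpep, another surface peptidase, stood at 3.39 ± 2.37 CPM (wt), 8.48 ± 2.11 (het) and 1.83 ± 0.905 (KO; SD, n = 2). It was called lower in KO than in het (adjusted p = 0.0141), and not without het replicate 2 or KO replicate 2. None of the 3 was called against wt.

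**Figure D4:**
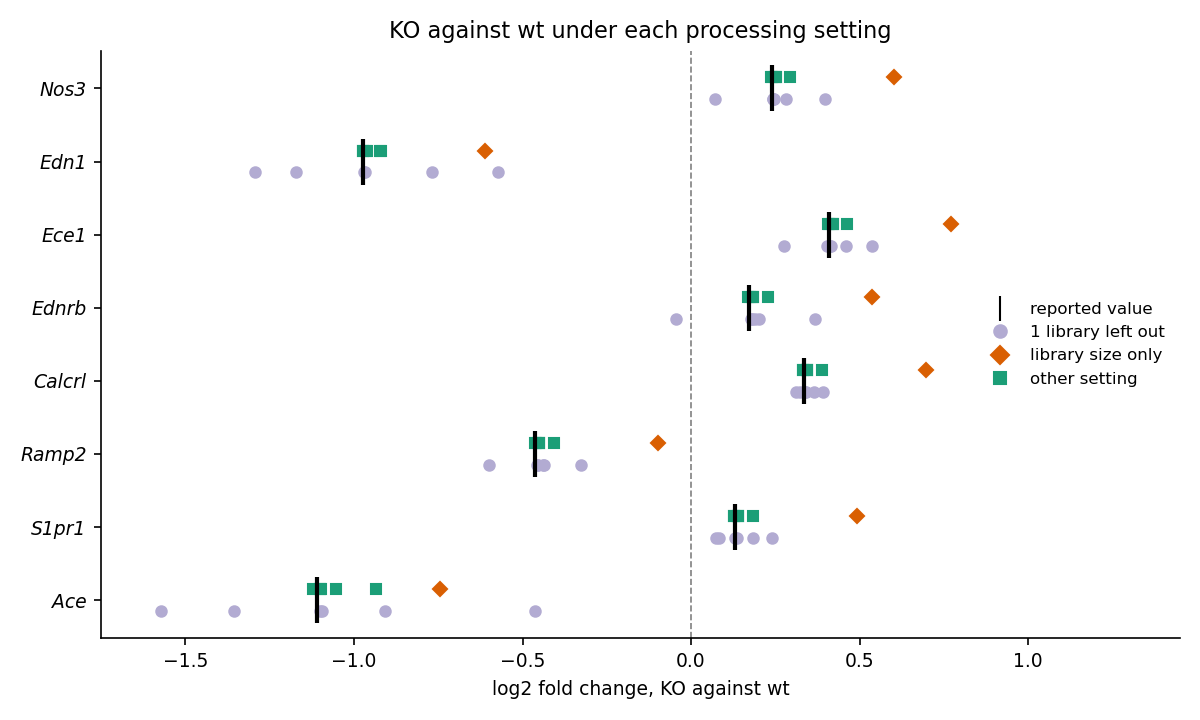
Log2 fold change of KO against wt (x axis) of each gene (y axis) under the reported processing (black bar) and 13 alternatives: 6 with 1 library left out, 1 scaled by library size only and 6 others. Ednrb alone crosses 0. Edn1 runs from -1.29 to -0.57 and Calcrl from 0.31 to 0.70.

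Other vasoactive systems of the endothelium were counted from lists in the same way. On the list of apelin and natriuretic peptide genes, 5 of 10 were tested. Apln, the peptide ligand apelin, stood at 245 ± 6.89 CPM (wt), 235 ± 2.13 (het) and 442 ± 33.2 (KO; SD, n = 2), 1.80-fold higher in KO than in wt (adjusted p = 1.55e-06), and its receptor gene Aplnr was 2.08-fold higher (adjusted p = 0.0342), a call lost without any 1 of the wt or KO libraries. Npr1, the receptor of atrial natriuretic peptide, which makes cyclic GMP, fell 2.25-fold, from 94.9 ± 8.93 to 41.9 ± 6.18 CPM (adjusted p = 1.13e-05). The calls of Apln and Npr1 held in all settings. On the prostanoid list 9 of 17 were tested, with none called higher (14.7% of all genes) and 2 called lower (17.3%). These were Ptges3, a cochaperone also known as a prostaglandin E synthase (1.41-fold, adjusted p = 0.00120, not called with library size only), and the thromboxane receptor gene Tbxa2r, at 13.3 ± 3.59 CPM in wt and 5.77 ± 0.478 in KO (adjusted p = 0.0137, not called with DESeq2, with library size only or without wt replicate 4 or KO replicate 2).

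The receptors above signal through G proteins. Of 15 genes for G protein subunits and receptor control, 13 were tested, and 3 were called higher and 7 lower in KO against wt, against 14.7% higher and 17.3% lower over all genes. Their median log2 fold change was -0.51, against -0.02 over all genes. Gnaq and Gna11, the alpha subunits that link endothelin receptors to phospholipase C, fell 2.09-fold and 1.59-fold, to 38.9 ± 5.95 and 113 ± 5.34 CPM from 80.9 ± 4.29 and 180 ± 4.00 in wt (SD, n = 2, adjusted p = 3.12e-05 and 1.42e-04). Gna12, another alpha subunit, rose 1.64-fold, from 235 ± 2.98 to 384 ± 18.8 CPM (adjusted p = 1.30e-05). These calls against wt held in all settings. Gnas, the stimulatory subunit used by the adrenomedullin receptor, and Gnai2, an inhibitory subunit used by S1pr1, were called lower by 0.51 and 0.49 on the log2 scale (adjusted p = 7.07e-05 and 1.13e-04), and stood at -0.15 and -0.13 with library size only, where neither was called. Gnai3, another inhibitory subunit, went the other way. It was called higher, at 0.48 against wt and 0.66 against het, and kept both calls in all settings. Gnai3 was named after its values were seen. In het against wt no gene of these lists was called by edgeR, DESeq2 or limma-voom. By edgeR, 9 of the 67 list genes tested had an unadjusted p under 0.05, as did 8.15% of all genes. Without a filter on low counts, 3 of 109 genes tested over the lists and the 8 were called lower (Ddah1, Cyb5r3 and Cav1). Over all genes 56 of 17683 were called lower there. Without het replicate 3, Ednrb stood at 1.21 on the log2 scale and Cav1 stayed lower than in wt. Cav1, the gene of the caveolar coat protein caveolin, was called higher in KO than in het (log2 fold change 0.46, adjusted p = 0.00564 by edgeR). That call was lost without KO replicate 2, and Cav1 was not called against wt (0.17). Cav1 was named after its values were seen.

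Over the 8 genes and the lists together, 34 of 75 genes tested were called between KO and wt, with 12 higher in KO and 22 lower, where 32% of all genes were called. Between KO and het 31 were called, 13 higher and 18 lower, where 31.2% of all genes were called. With scaling by library size only the balance turned, to 25 higher and 8 lower against wt, 28 higher and 10 lower against het. Over all 10952 genes it turned as well, to 3878 higher and 1034 lower against wt, 3930 higher and 1016 lower against het. The count of 34 fell without wt replicate 4, and that of 31 without KO replicate 2. So did the counts over all genes in those fits. The lists and the 8 genes were chosen with earlier results known, so these counts describe them and are not a test.

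**Figure D5:**
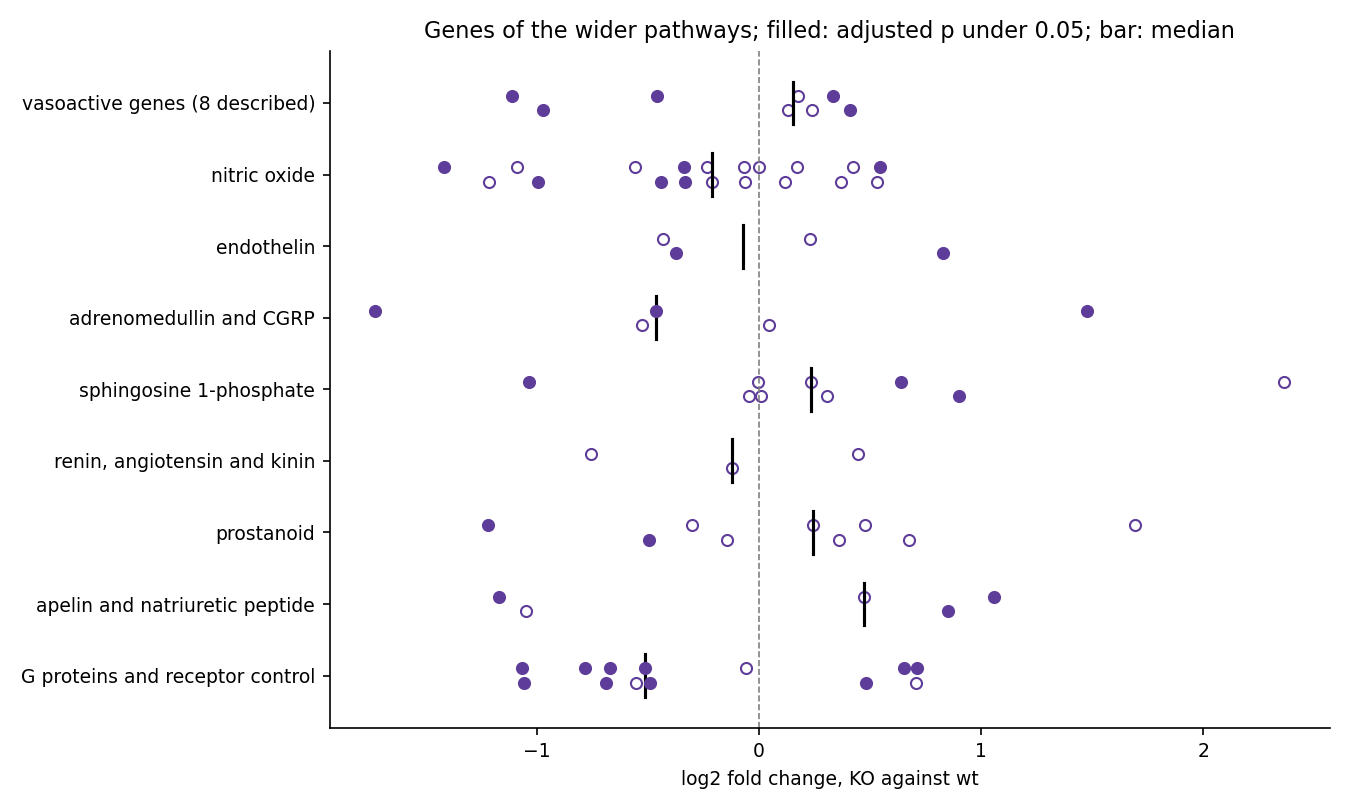
Log2 fold change of KO against wt (x axis) of every tested gene on each list (y axis), filled where the adjusted p was under 0.05, with a black bar at the list's median. Adm lies farthest right among the filled points at 1.48 and Ackr3 farthest left at -1.73.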

How the data were processed

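Values are expected counts as the authors deposited them, RSEM's estimate of the reads of each gene, which can be fractional. Per the submitters' processing notes, CASAVA, cutadapt and RSEM were used on GRCm38; versions are not given in the sources used here. Reads from overlapping genes are split by estimate, and strand was not kept by the SMART-Seq v4 kit named in the labels' protocols. Symbols, positions and exon lengths came from GENCODE M21 on GRCm38, which matched 97.9% of gene identifiers.

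The labels disagree on single or paired reads. Counts were rounded. In R 4.3.3, edgeR 4.0.16 was run with TMM scaling, filterByExpr (minimum count 10) and a robust quasi-likelihood fit of all 6 libraries, leaving 3 residual degrees of freedom. Tests were two-sided, with Benjamini-Hochberg adjustment over 10952 genes. SEs are the log2 fold change over the root of F. The procedure was also run on counts simulated with the spread that the same fit estimated. The simulation held no difference in makeup confined to KO, so it does not check that setting. Alternatives were scaling by library size or RLE, DESeq2 1.42.0, limma-voom (3.58.1), no filter, fits of 2 groups, a table without Lars2, mitochondrial, 7SL and 7SK genes, and each library left out.

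The 8 genes and the lists were chosen with earlier results of these data known. Named were the 8, Dll4 and from each list up to 5 genes called in any comparison, ranked by their adjusted p for KO and wt. Erythroid, epicardial, platelet and endocardial markers were also summed. Promoter windows came from RefSeq.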

Additional observations from a re-analysis of the deposited data

How the results depend on the processing

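Of the 13 alternatives, leaving out wt replicate 4 changed the count of called genes most in KO against wt: leaving out 1 library gave between 2043 and 3815, against 3509. Library size only gave 3878 higher and 1034 lower in place of 1610 and 1899. For het against wt the count of 19 became 8 with limma-voom, 150 without a filter, and between 2 and 76 with 1 library left out. KO against het gave between 2435 and 3206 with 1 library left out, against 3412. Among the 8 genes, directions turned only for values that were not called. With 1 library left out, het against wt ran from -0.052 to 0.71 on the log2 scale for Edn1, -0.11 to 0.045 for S1pr1, -0.047 to 1.21 for Ednrb, -0.12 to 0.18 for Ramp2 and -0.27 to 0.14 for Ece1. Ednrb ran from -0.046 to 0.37 in KO against wt and -1.03 to 0.23 in KO against het, and Nos3 from -0.083 to 0.24 in KO against het. Ace in KO against het was 0.34 with library size only, 0.014 without a filter and -0.29 to 0.16 with 1 library left out. The cause was not tested. No called difference of the 8 genes changed direction in any alternative. On the lists, called falls turned with library size only for Hsp90aa1 and Hsp90ab1 against wt (both 0.03). Against het they turned for Hsp90aa1 (0.12) and Gnai2 (0.001). Where 1 library of a group was left out, the other was assumed to vary like the remaining groups. Counts of Ace and Edn1 limit their precision. No paired analysis was possible because het and KO share 1 replicate number and wt shares none with either.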

Other observations

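For each of the 8 genes, the 2 genes nearest to it in pattern were found among 9164 candidates with a mean log2 CPM of at least 3. The measure was the root mean square difference of mean-centred log2 CPM over the 6 libraries. With 6 libraries and so many candidates, close neighbours exist for most patterns, and these are a description only. Edn1 was nearest to Crtc1 (0.07) and Meis2 (0.16). Calcrl was nearest to Fam129b (0.05) and Srsf10 (0.06), which were also lowest in het, at 133 and 115 CPM. Ramp2 was nearest to Caml (0.04) and Eif3a (0.05), Ece1 to Abtb2 (0.04) and Cdc25a (0.05), Nos3 to Fam13b (0.04) and Brat1 (0.04), and S1pr1 to Rab10 (0.01) and Tmem165 (0.03). Ednrb and Ace had more distant neighbours, Herc6 and Gorasp2 (0.14 each) and Etfrf1 (0.20) and Tmem71 (0.23).

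Among the vasoactive genes not tested, the prostacyclin receptor gene Ptgir had at most 7 counts in a library, the inducible cyclooxygenase gene Ptgs2 at most 22, and the neuronal nitric oxide synthase gene Nos1 had 0 in all 6 libraries. The sphingosine 1-phosphate receptor gene S1pr3 had at most 8 and S1pr5 had 0.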
